A study of Mus musculus with 12 samples.

Results

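The integrated stress response and the endoplasmic reticulum (ER) stress response were followed through 10 genes, Ddit3, Atf4, Trib3, Asns, Chac1, Sesn2, Psat1, Phgdh, Hspa5 and Xbp1. They were chosen by symbol, as the rows of the 2 deposited count tables whose Ensembl identifier carries one of these names in the mouse GRCm38 annotation. The tables hold 55487 genes, and 11 rows carried the 10 names. Ddit3 had 2 rows, of which the shorter (ENSMUSG00000116429, 105 bp of exon, all inside exons of the longer) held 0 counts in all 12 libraries, so the longer row (ENSMUSG00000025408, 1713 bp) was used. All 10 genes passed the filter on low counts in both experiments.

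When proteins misfold in the ER, amino acids run short, haem is lacking or double-stranded RNA appears, one of several kinases phosphorylates the translation factor eIF2 alpha. General translation then slows, while the mRNA of Atf4 is translated more, and the ATF4 protein switches on genes for amino acid supply, feedback and, when stress lasts, cell death. The unfolded protein response shares this arm through the kinase PERK and has further arms, IRE1, which splices the Xbp1 mRNA, and ATF6, which raises ER chaperones such as Hspa5. In macrophages and in bone-forming cells these responses are known to accompany heavy secretion and inflammatory activation. Counts per gene measure RNA amounts and show neither the translation of Atf4 nor the splicing of Xbp1.

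RNA sequencing was carried out in 2 experiments on cells of C57BL/6 mice, which the methods give as female and the labels as 8 weeks old. In the first, bone marrow-derived macrophages (BMMs) from ovariectomized (OVX) and sham-operated mice were compared, with 3 libraries per group. According to the methods the surgery was done at that age and BMMs were grown with the macrophage growth factor M-CSF. In the second, mesenchymal stem cells (MSCs, adherent marrow cells that had been passaged) were kept alone, with RAW cells or with RAW cells stimulated with lipopolysaccharide (LPS), with 2 libraries per group. RAW cells are a mouse macrophage line, and the study names these groups MSC, MSC+RAW-TW and MSC+RAW-LPS-TW after a transwell, a membrane insert that parts cells. The sample labels say only that the cells were co-cultured, so RNA of RAW cells in these libraries cannot be told apart from that of the labelled cells. All groups share strain and age. Neither the number of animals behind a library nor pooling was stated, so a p-value measures the spread between these libraries, which may be technical.

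The 12 libraries held between 17012923 and 45367105 counts, and the lowest count of any of the 10 genes was 91. Sham replicates 2 and 3, and likewise both MSC+RAW-TW libraries, differed far less than any other pair within a group, and each pair was counted as 1 sample. Among highly counted genes, the mean chi-square per gene was 3.50 and 4.37 for these pairs and 51.14 to 437.8 for the others. Values above 1 mean that they still differed by more than independent counts would, provided that each count is an independent read. Whether both reads of a pair were counted was not stated. This left n = 2 for sham, 3 for OVX, 2 for MSC, 1 for MSC+RAW-TW and 2 for MSC+RAW-LPS-TW. Libraries are named by replicate number where the labels give it, and as A and B in the other co-culture groups. The columns of both MSC+RAW-TW libraries carry the same short name. The labelled cell types were only partly borne out by their markers. The MSC libraries held high levels of macrophage genes, with Lyz2 (in CPM, counts scaled to the library total) between 21597 and 21728 CPM and Csf1r between 1062 and 1160 CPM, and also stromal genes, with Col1a2 between 880 and 927 CPM and Pdgfrb between 157 and 161 CPM, while other stromal markers were low, with Thy1 between 0.294 and 0.449 CPM, Lum between 0.286 and 0.500 CPM and Lepr between 1.78 and 2.03 CPM. In the BMM libraries, Col1a1 lay between 1903 and 2057 CPM. In every group the 10 genes were therefore measured in RNA that held markers of both lineages, and fewer cells of a type cannot be told apart from less RNA per cell.

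Stretches around the start sites of Hspa5, Chac1, Trib3 and Asns are shown because each holds a DNA element known to bind factors of these pathways. Sequences are from RefSeq on GRCm38.p6, cover 250 bases before the start to 50 after it on the gene's own strand, and were found for all 10 genes. Of the 32851 promoters in the same collection, 3.97% held the C/EBP-ATF response element, TGATGNAA on either strand, through which ATF4 is known to act. It was found for 3 of the 10 genes, Chac1, Trib3 and Asns. The ER stress response element, which ATF6 binds, was searched as CCAAT, 9 bases of any kind and CCACG on either strand. It occurred in 0.12% of promoters and for 1 of the 10 genes, Hspa5. Neither the cyclic AMP response element TGACGTCA (1.79% of promoters) nor the XBP1 element TGACGTGG (0.68%) was found for any of the 10 in these windows. A match of letters is a description and not a measured binding site. Capitals mark the matches.
Hspa5 (chr2:34771840-34772139, plus strand, ER stress response element from 65 to 47 bases before the start): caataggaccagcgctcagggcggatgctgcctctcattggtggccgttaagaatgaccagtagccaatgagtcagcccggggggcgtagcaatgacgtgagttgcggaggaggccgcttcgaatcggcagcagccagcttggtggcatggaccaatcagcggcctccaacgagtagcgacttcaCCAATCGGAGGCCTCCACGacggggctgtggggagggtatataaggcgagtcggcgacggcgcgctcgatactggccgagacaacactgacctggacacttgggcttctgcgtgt
Chac1 (chr2:119350992-119351291, plus strand, C/EBP-ATF element from 193 to 186 bases before the start, read on the opposite strand): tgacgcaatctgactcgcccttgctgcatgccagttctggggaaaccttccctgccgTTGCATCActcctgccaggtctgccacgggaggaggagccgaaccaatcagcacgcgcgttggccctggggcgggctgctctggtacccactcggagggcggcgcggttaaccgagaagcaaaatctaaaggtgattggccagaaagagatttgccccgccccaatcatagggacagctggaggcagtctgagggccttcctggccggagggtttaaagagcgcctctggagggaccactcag
Trib3 (chr2:152344011-152344310, minus strand, C/EBP-ATF element from base 15 to base 22 after the start, read on the opposite strand): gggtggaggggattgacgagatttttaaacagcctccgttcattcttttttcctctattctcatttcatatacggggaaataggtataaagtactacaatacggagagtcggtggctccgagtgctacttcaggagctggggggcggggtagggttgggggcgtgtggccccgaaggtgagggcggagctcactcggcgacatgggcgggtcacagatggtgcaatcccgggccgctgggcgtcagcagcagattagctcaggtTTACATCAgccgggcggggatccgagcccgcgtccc
Asns (chr6:7693160-7693459, minus strand, C/EBP-ATF element from 23 to 16 bases before the start): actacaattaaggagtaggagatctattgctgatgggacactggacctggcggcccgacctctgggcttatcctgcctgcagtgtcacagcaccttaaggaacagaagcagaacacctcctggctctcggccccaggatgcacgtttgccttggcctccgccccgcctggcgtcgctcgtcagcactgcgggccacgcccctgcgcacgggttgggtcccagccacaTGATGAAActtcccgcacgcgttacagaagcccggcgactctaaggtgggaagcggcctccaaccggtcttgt

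Levels are given as normalised read counts (CPM, scaled by the TMM method within each experiment), and levels of different genes are compared only after division by exon length. Per kilobase, Hspa5 and Atf4 were the highest of the 10 genes in all 5 groups and Chac1 or Sesn2 the lowest. In sham BMMs the mean level was 217 CPM per kilobase for Atf4 and 173 for Hspa5. In MSC alone the order was the other way round, with 306 for Hspa5 and 107 for Atf4. Xbp1 came next in both groups, at 60.5 in sham and 40.3 in MSC. Chac1 was last in both, at 5.40 and 2.18 CPM per kilobase. Neighbours in this order could not be separated in some groups. In OVX, the libraries overlapped between Hspa5 and Atf4, along Asns, Xbp1, Psat1 and Phgdh, and along Ddit3, Chac1 and Sesn2. In sham they overlapped along the 6 lowest genes, from Psat1 through Phgdh, Trib3, Sesn2 and Ddit3 to Chac1.

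**Figure D1:**
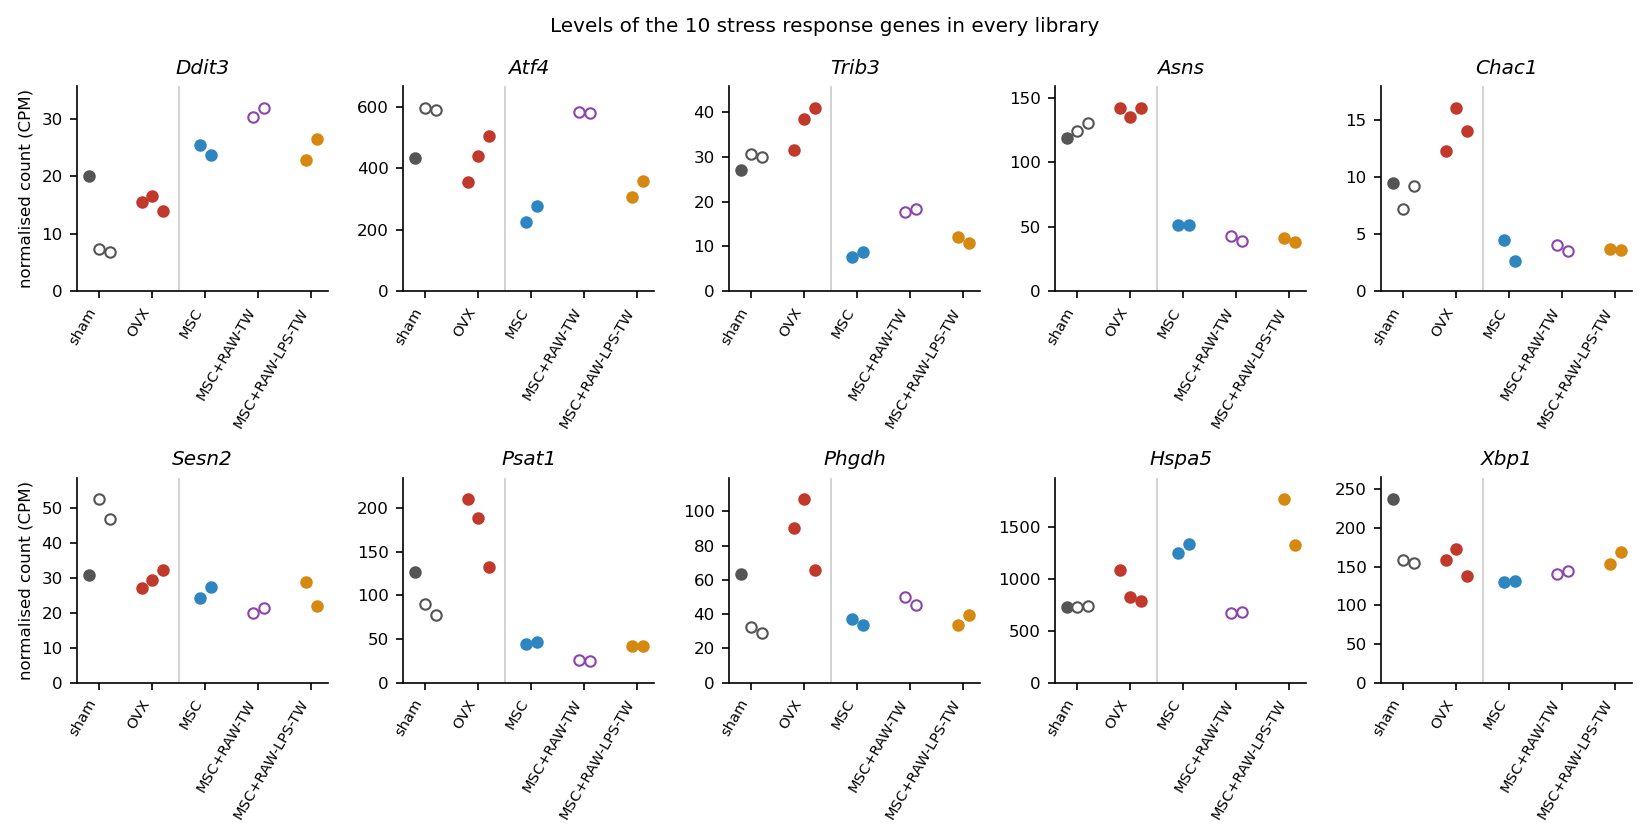
Level of each gene in every library, in CPM on linear axes that start at 0, by group. Each point is a library, and open points are the near-identical pairs that count as 1 sample. The 3 OVX points of Phgdh and Psat1 lie above the sham points, and Atf4 is highest among the MSC groups in MSC+RAW-TW, where Hspa5 is lowest.

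The first comparison asks how ovariectomy alters BMMs. None of the 10 genes passed the test between OVX and sham, which required at least a 2-fold change and an adjusted p of at most 0.05 over all genes (edgeR quasi-likelihood test with Benjamini-Hochberg adjustment). Of the 16768 genes tested, 8.46% passed it. DESeq2 with the same limits also called 0 of the 10. At an unadjusted p of at most 0.05, with no fold limit, 3 of the 10 were reached, Phgdh, Psat1 and Chac1, against 29.9% of all genes. The OVX libraries did not overlap the sham libraries for 6 of the 10, all higher in OVX, against 42.9% of all genes. The median log2 difference of the 10 genes was 0.23, beside -0.01 over all genes.

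The largest of the 10 differences as reported, neither past the test, were those of a pair of serine synthesis enzymes. Phgdh, the enzyme that opens serine synthesis from a glycolytic intermediate, was at 63.4, 32.2 and 29.2 CPM in sham replicates 1 to 3 and at 90.4, 107 and 65.9 CPM in OVX replicates 1 to 3. All OVX libraries lay above all sham libraries, but OVX replicate 3 exceeded sham replicate 1 only narrowly. The log2 difference was 0.90 ± 0.33 (SE, adjusted p = 0.112 by edgeR, 0.0338 by DESeq2), with a 95% interval from 0.14 to 1.66. Psat1, the aminotransferase of the next step, was at 127, 90.5 and 77.5 CPM in sham and at 210, 189 and 132 CPM in OVX. Here too the lowest OVX library stood just above the highest sham library. The log2 difference was 0.75 ± 0.27 (adjusted p = 0.103 by edgeR, 0.0424 by DESeq2). Both differences fell short of 2-fold, which is why DESeq2 did not call them either.

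Asns, which makes asparagine from aspartate and glutamine, varied little. It was at 119, 124 and 130 CPM in sham and at 142, 135 and 142 CPM in OVX, so the groups were apart but close. The log2 difference of 0.17 ± 0.17 (edgeR adjusted p = 0.530) had a 95% interval from -0.21 to 0.56.

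Among the targets that feed back on the pathway, Chac1, which breaks down glutathione, was at 9.48, 7.21 and 9.20 CPM in sham and at 12.3, 16.1 and 14.1 CPM in OVX. Each OVX library exceeded each sham library. The log2 difference was 0.67 ± 0.22 (edgeR adjusted p = 0.0803), with a 95% interval from 0.17 to 1.16. Trib3, a pseudokinase that restrains ATF4 and CHOP, had means of 28.7 ± 2.26 CPM in sham (SD, n = 2) and 37.1 ± 4.88 CPM in OVX (SD, n = 3). Its groups did not overlap either, with a log2 difference of 0.37 ± 0.19 (edgeR adjusted p = 0.242). Sesn2, a stress-induced inhibitor of mTORC1 signalling, pointed the other way without passing the test, at 30.9, 52.5 and 46.9 CPM in sham and at 27.0, 29.5 and 32.3 CPM in OVX (log2 difference -0.45, edgeR adjusted p = 0.233).

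The transcription factors did not separate the groups. Ddit3, which encodes the death-linked factor CHOP, was at 20.1 CPM in sham replicate 1 and at 7.40 and 6.78 CPM in sham replicates 2 and 3. The OVX libraries, at 15.5, 16.5 and 14.0 CPM, all lay between these. The log2 difference was 0.17, with a 95% interval from -0.70 to 1.04. Atf4 ranged from 432 to 596 CPM in sham and from 354 to 505 CPM in OVX, and Xbp1 from 155 to 237 CPM and from 138 to 173 CPM. Both overlapped, with log2 differences of -0.25 for Atf4 and -0.33 for Xbp1. The ER chaperone Hspa5, also called BiP, was steady in sham, at 731, 732 and 738 CPM. It was at 1086, 823 and 786 CPM in OVX, higher in each library but with a wide spread (log2 difference 0.29 ± 0.20, edgeR adjusted p = 0.378).

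Several of these values turned on sham replicate 1. Its level relative to the mean of sham replicates 2 and 3 was 2.83-fold for Ddit3, 2.06-fold for Phgdh, 1.51-fold for both Psat1 and Xbp1, and 0.623-fold for Sesn2, while it was 0.995-fold for Hspa5. Over all genes tested, 4.97% differed at least 2-fold in this way. Without sham replicate 1, 3 of the 10 genes were called, all higher in OVX, while calls over the whole table rose from 1419 to 2390. The log2 differences were then 1.51 for Phgdh (edgeR adjusted p = 0.00699), 1.08 for Psat1 (0.0236) and 1.11 for Ddit3 (0.0196), with the remaining sham pair taken to vary as the OVX libraries do. Without the pair instead, they were 0.46, 0.48 and -0.39, and none was called. Genes called over the whole table numbered 678 without OVX replicate 1 and 309 without OVX replicate 2. The library codes in the column names form 2 series, whose meaning is not given. Within the first (1 library a group) and the second, the log2 difference was 1.72 and 0.85 for Phgdh, 1.06 and 0.75 for Psat1, 1.15 and 0.50 for Chac1, and 1.15 and 0.34 for Ddit3. Sham replicates 2 and 3, counted as 1 sample, lie in different series, so the 2 values of a gene are not independent.

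Base composition moved with this comparison. Across genes, the log2 difference between OVX and sham had a Spearman correlation of -0.56 with the GC content of the exons, given as a description. After lowess trends on the GC content and length of genes were taken out library by library, 1 of the 10 genes was called, Chac1, at a log2 difference of 1.09. Trib3 then stood at 0.82, Phgdh at 1.27 and Psat1 at 0.63, while Hspa5 was at 0.08. The direction turned for Sesn2, from -0.45 to 0.02, and for Atf4, from -0.25 to 0.12. Over the whole table this step gave 540 calls, 199 higher and 341 lower in OVX, where 1419 were made without it, 903 higher and 516 lower. The share of counts on ribosomal RNA genes, nuclear and mitochondrial, also differed, at 3.22% to 5.70% in sham and 2.56% to 2.78% in OVX. The part of base composition in the differences was not tested beyond this, and that of the ribosomal share was not tested.

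**Figure D2:**
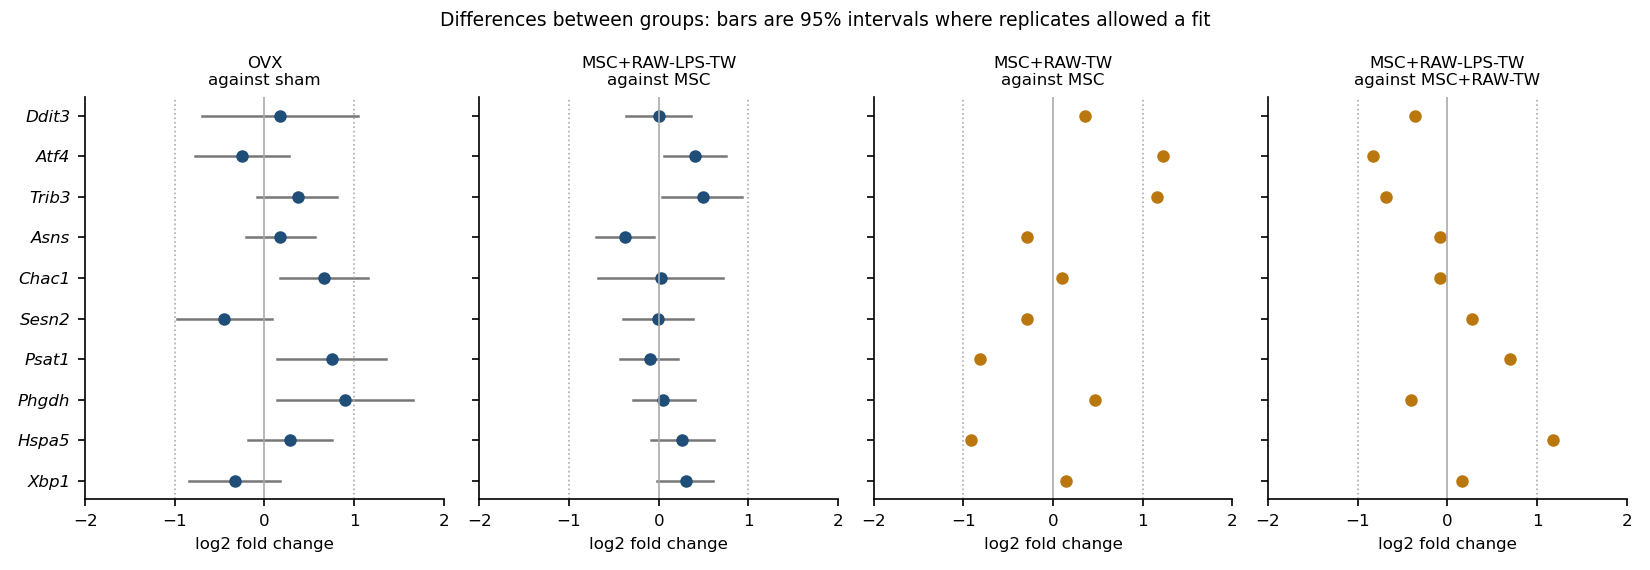
Log2 fold change of each gene in the 4 comparisons. Bars are 95% intervals of the edgeR fit for the comparisons with replicates, and points without bars involve MSC+RAW-TW, which counts as 1 sample. Dotted lines mark 2-fold, which is passed by Atf4, Trib3 and Hspa5 in the comparisons with MSC+RAW-TW.

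The second comparison asks what LPS-stimulated RAW cells change in MSCs, against MSCs kept alone. The 10 genes moved little. Again 0 of the 10 were called, by edgeR and by DESeq2, against 10.9% of the 20499 genes tested, and no log2 difference exceeded 0.49 in size. At an unadjusted p of at most 0.05, 3 of the 10 were reached, Atf4, Trib3 and Asns, against 31.2% of all genes. Libraries did not overlap for 5 of the 10, against 57.6% of all genes. In this comparison the correlation of the differences with GC content was 0.00.

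Atf4 was at 226 and 278 CPM in MSC and at 307 and 359 CPM in MSC+RAW-LPS-TW. Both co-culture libraries were the higher ones, by a log2 difference of 0.40 ± 0.16 (edgeR adjusted p = 0.0962). Trib3 was at 7.67 and 8.79 CPM in MSC and at 12.2 and 10.8 CPM with LPS-stimulated RAW cells, a log2 difference of 0.49 ± 0.21 (edgeR adjusted p = 0.121). Asns lay the other way, at 51.5 and 50.9 CPM in MSC against 41.1 and 37.7 CPM, a log2 difference of -0.38 ± 0.15 (edgeR adjusted p = 0.100). None of these passed the threshold.

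Hspa5 was at 1252 and 1335 CPM in MSC, and its co-culture libraries A and B were at 1769 and 1331 CPM. The groups overlapped, with a log2 difference of 0.26 ± 0.17 (edgeR adjusted p = 0.321), which was 0.50 and -0.02 within the series of library codes. Xbp1 was at 130 and 132 CPM in MSC and at 153 and 169 CPM in MSC+RAW-LPS-TW, so that the groups stayed apart (log2 difference 0.30 ± 0.15, edgeR adjusted p = 0.183). The 95% interval of the log2 difference ran from -0.36 to 0.36 for Ddit3, from -0.40 to 0.38 for Sesn2, from -0.43 to 0.22 for Psat1, from -0.29 to 0.40 for Phgdh and from -0.68 to 0.72 for Chac1. A change of 2-fold lies outside all of these.

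The remaining comparisons involve MSC+RAW-TW, which holds 1 sample, so they carry no test and no replicate check. They share that sample, and MSC and MSC+RAW-LPS-TW are each compared more than once. A gene was counted where its groups differed at least 2-fold and no library of one overlapped the other. The median log2 difference over all genes was -0.13 against MSC and 0.14 for MSC+RAW-LPS-TW relative to MSC+RAW-TW, and values relative to it are given for those of the 10 genes that were counted.

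Against MSC, 2 of the 10 genes were counted as higher in MSC+RAW-TW, Atf4 and Trib3, where 13.1% of the 20499 genes were, and 0 of the 10 as lower, where 21.5% were. Atf4 was at 582 and 581 CPM in the near-identical libraries and at 226 and 278 CPM in MSC. It was 2.35-fold higher, a log2 difference of 1.23, or 1.37 relative to the median gene. Trib3 was at 17.8 and 18.4 CPM against 7.67 and 8.79 CPM. It was 2.24-fold higher, a log2 difference of 1.16, or 1.30 relative to the median gene.

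Other genes that ATF4 is known to induce were spread on both sides of MSC. Asns was at 42.9 and 38.8 CPM, below both MSC libraries. Psat1 was at 25.4 and 25.2 CPM against 43.9 and 46.3 CPM in MSC, a log2 difference of -0.81. Chac1 was at 4.01 and 3.49 CPM, within the MSC range of 2.67 to 4.45 CPM, and Sesn2 had a mean of 20.7 CPM, below the 24.1 and 27.4 CPM of MSC. Ddit3, at 30.3 and 31.9 CPM against 25.5 and 23.7 CPM, and Phgdh, at 49.8 and 45.5 CPM against 36.9 and 33.6 CPM, were higher by log2 differences of 0.36 and 0.47, respectively. With GC content and length trends removed, Phgdh stood at -0.01, Chac1 at -0.43, where it was at 0.10 before, and Sesn2 at -0.93, where it was at -0.29.

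Hspa5 went opposite to Atf4. It was at 669 and 679 CPM in MSC+RAW-TW, below the 1252 and 1335 CPM of MSC and below the 1769 and 1331 CPM of MSC+RAW-LPS-TW. The ratio to MSC was 0.531. Xbp1 varied little across these groups, from 130 to 169 CPM over the 6 libraries.

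Against MSC+RAW-TW, 1 of the 10 genes was counted as higher in MSC+RAW-LPS-TW, Hspa5, where 24.6% of all genes were, and 0 of the 10 as lower, where 18.6% were. Hspa5 was 2.26-fold higher, a log2 difference of 1.18, or 1.04 relative to the median gene. Without MSC+RAW-LPS-TW replicate A, which held the highest level, it was 0.97 and was no longer counted. Atf4 was lower by a log2 difference of -0.83 and Trib3 by -0.68, and both had libraries that did not overlap. Psat1 was higher by 0.70, at 42.0 CPM in each of the LPS libraries.

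These values also moved with base composition. The share of counts on ribosomal RNA genes was 4.14% to 4.83% in MSC, 1.91% to 1.93% in MSC+RAW-TW and 5.67% to 8.03% in MSC+RAW-LPS-TW, and its part in the values was not tested. Across genes, the correlation of the log2 difference with GC content was 0.40 for MSC+RAW-TW against MSC and -0.32 for MSC+RAW-LPS-TW relative to MSC+RAW-TW. With trends on GC content and length removed, Atf4 was higher in MSC+RAW-TW by a log2 difference of 0.81 and Trib3 by 0.50, while Hspa5 was lower at -0.60. Hspa5 was then higher with LPS by 0.88, Atf4 was at -0.36, Trib3 at -0.04 and Sesn2 at 0.89, and none of the 10 was counted in either comparison. Within the 2 series of library codes, the log2 difference against MSC was 1.37 and 1.04 for Atf4 and 1.21 and 1.04 for Trib3, and for Hspa5 with LPS against untreated RAW cells 1.40 and 0.97. Each series holds 1 of the near-identical MSC+RAW-TW libraries, counted as 1 sample, so the 2 values of a gene are not independent.

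**Figure D3:**
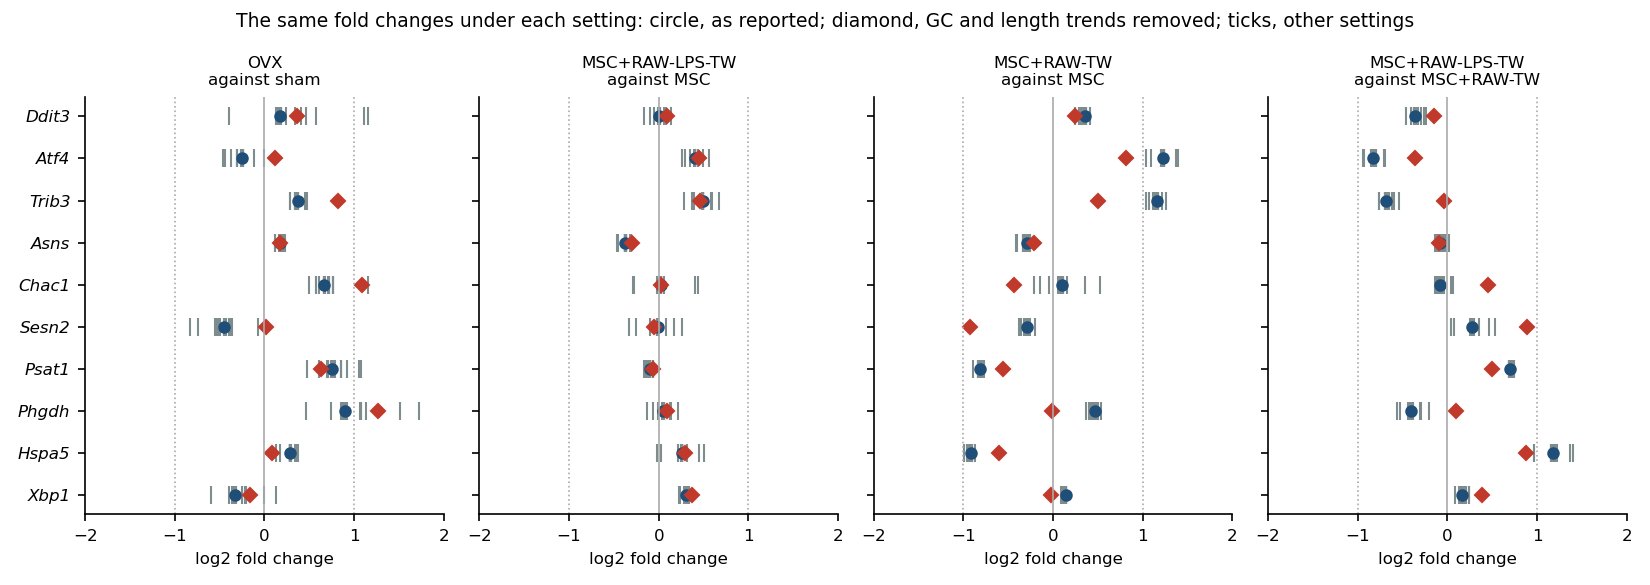
Log2 fold change of each gene in the 4 comparisons under every setting tried. Circles are the values as reported, diamonds the values with GC content and length trends removed, and ticks the other settings, which include leaving out libraries. Diamonds sit farthest from circles for Trib3, Sesn2, Phgdh and Chac1, and in MSC+RAW-LPS-TW against MSC the settings spread across 0 for Ddit3, Chac1, Sesn2, Phgdh and, by 1 setting, Hspa5, from -0.29 to 0.44 for Chac1.

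Markers moved with the same groups, though not all in one direction within a list. The summed level of 13 macrophage markers, most of it Lyz2, lay between 28761 and 28789 CPM in MSC, between 38404 and 38820 CPM in MSC+RAW-TW and between 14722 and 15275 CPM in MSC+RAW-LPS-TW. In MSC+RAW-LPS-TW against MSC, where 10.9% of all genes were called, 5 of the 13 fell and 1 rose. Among those that fell was Mrc1, at 583 to 594 CPM in MSC and at 3.99 to 4.01 CPM with LPS-stimulated RAW cells. Adgre1 rose, from a mean of 548 to 1468 CPM. Ptprc, Itgam and Cd14 were also higher without overlap and did not pass the test. The sum of 14 mesenchymal stromal markers lay between 2865 and 3035 CPM, between 2660 and 2684 CPM, and between 4191 and 4237 CPM in the same order of groups. Of these, 3 rose with LPS-stimulated RAW cells, Dcn, Lum and Nt5e, while Cxcl12 (log2 difference -0.81, edgeR adjusted p = 0.00106) and Ly6a (-0.51) were lower without overlap and short of 2-fold. Neither list had a gene at 0 throughout a group. In BMMs the macrophage sum was 58995 to 63617 CPM in sham and 43253 to 47777 CPM in OVX. Of the 13, 9 were lower in OVX without overlap, Lyz2, C1qa, C1qb and Tyrobp among them, as were 3581 of the 16768 genes tested. The median log2 difference was -0.62. By the test 2 of the 9 fell, Adgre1 and Fcgr1. The other way, Mrc1 rose from a mean of 50.4 to 203 CPM (edgeR adjusted p = 0.00453) and Ptprc was higher without overlap. With GC content and length trends removed, Ptprc turned from 0.63 to -0.37, Fcgr1 stood at -0.94 and C1qa at -0.24, while Adgre1 was at -1.31 and Mrc1 at 1.21. The stromal sum overlapped, at 7540 to 8125 CPM and 7690 to 8303 CPM. Of the 14 stromal markers, 4 were higher and 5 lower in OVX without overlap. By the test 1 rose and 1 fell, where 8.46% of all genes were called. Nt5e was at 2.18 to 3.35 CPM in sham and 5.94 to 9.44 CPM in OVX. Ly6a was at 346 to 368 CPM in sham and 158 to 180 CPM in OVX.

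Markers of other cells were lower or rested on few genes. The sum of 8 neutrophil and granulocyte precursor markers was 811 to 943 CPM in sham and 1197 to 1329 CPM in OVX, mostly S100a8 and S100a9. Of the 8, 5 were higher in OVX without overlap, where 42.9% of all genes did not overlap, and 0 were called. Mpo was lower without overlap, at 8.22 to 15.6 CPM in sham and 3.68 to 7.07 CPM in OVX. Elane and Camp also ranged lower in OVX, with overlap. In the MSC experiment it was 11.7 to 16.4 CPM in MSC, 31.8 to 34.6 CPM in MSC+RAW-TW and 370 to 555 CPM in MSC+RAW-LPS-TW. In the LPS group that sum was S100a8, at 341 to 515 CPM, and Camp, while S100a9, Elane, Mpo and Ltf were at or near 0 there. The sum of 4 osteoclast markers was 448 to 592 CPM in sham and 257 to 265 CPM in OVX, where Acp5 and Ocstamp fell. It was 52.5 to 55.2 CPM in MSC, 90.9 to 91.8 CPM in MSC+RAW-TW and 124 to 148 CPM in MSC+RAW-LPS-TW. Between the first and the last of these Acp5 rose from a mean of 23.0 to 110 CPM, Ctsk was lower, at 26.0 against 30.7 CPM, and Calcr was at or near 0. Plasma cells are known to hold much Xbp1. Their 6 markers summed to 375 to 411 CPM in sham, 233 to 291 CPM in OVX, 120 CPM in MSC, 255 to 259 CPM in MSC+RAW-TW and 327 to 375 CPM in MSC+RAW-LPS-TW, with Sdc1, which other cells also express, at 115 CPM or more in every library. The defining markers Tnfrsf17 and Mzb1 were at 0 in all libraries of the MSC experiment and at most at 0.194 CPM in BMMs. Jchain, of the same list, rose in OVX against the direction of the sum, from a mean of 3.94 to 11.6 CPM (edgeR adjusted p = 0.0475), a log2 difference of 1.54 that became 0.60 with the trends removed. B cell, T cell and erythroid markers summed to at most 4.14 CPM in any library. The part of these shifts in the values of the 10 genes was not tested.

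The wider pathway was read from 11 further lists that hold 113 genes. All 113 were tested in the BMM experiment and 112 in the MSC experiment, where Fgf21 had no counts. Between OVX and sham, 6 of them rose and 1 fell, or 6.2% called where 8.46% of all genes were, and their median log2 difference was -0.01, as over all genes. Those that rose were spread over 5 lists. They included Cth of cysteine synthesis, at 26.6 ± 2.73 CPM in OVX and 8.52 ± 2.13 CPM in sham (log2 difference 1.64 ± 0.23, edgeR adjusted p = 0.00779). The ER chaperone Hsp90b1, known as GRP94, was at 630 ± 53.5 and 277 ± 17.1 CPM, a log2 difference of 1.18 (edgeR adjusted p = 0.00876), and 0.60 with GC content and length trends removed. Edem3, which trims mannose from misfolded glycoproteins, rose by a log2 difference of 1.17, and the cytosolic chaperone Hsp90aa1 by 1.52. Sdf2l1, another ER stress-responsive gene, fell by 1.03 on the log2 scale (edgeR adjusted p = 0.0219). With the trends removed Sdf2l1 was at -0.59 and Edem3 at 0.96, both short of 2-fold, while Cth was at 1.13 and Hsp90aa1 at 1.16. Of the 7 genes for eIF2 alpha, its kinases and its phosphatase, 0 were called by edgeR or DESeq2 and 0 reached an unadjusted p of 0.05.

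Between MSC+RAW-LPS-TW and MSC, 11 of the 112 genes rose and 1 fell, or 10.7% called where 10.9% of all genes were, and the median log2 difference was 0.16 beside -0.01 over all genes. The list that Hspa5 would belong to stood above 0 as a whole. Of 14 ER chaperones and folding enzymes, all had a log2 difference above 0, from 0.11 to 1.29, with a median of 0.65. Without overlap, 13 were higher, as were 5860 of the 20499 genes tested. An edgeR adjusted p of at most 0.05 was reached by 11 of the 14, and by 4286 of all genes tested. Hspa5 itself stood at 0.26. Only Ero1l, an oxidase of disulphide formation, passed the 2-fold limit as well, at 183 ± 15.4 CPM against 74.6 ± 2.25 CPM (edgeR adjusted p = 1.1e-05). Among 14 genes of ER-associated degradation and translocation, the median log2 difference was 0.51. Without overlap, 11 were higher and 1 lower, and 6 reached an edgeR adjusted p of at most 0.05. By the test 3 rose, and the largest rise was that of Dnajb9, a co-chaperone of BiP, at 1.64 ± 0.30 (edgeR adjusted p = 0.00092). Its MSC+RAW-LPS-TW libraries were far apart, at 118 and 52.8 CPM.

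On the amino acid side, 1 transporter rose and 1 fell. Slc7a11, the cystine importer, was at 83.5 ± 20.7 CPM in MSC+RAW-LPS-TW and 10.7 ± 1.43 CPM in MSC, 7.79-fold higher (edgeR adjusted p = 2.5e-08), while the glutamine carrier Slc1a5 fell by 1.31 on the log2 scale. Cth again rose, by a log2 difference of 1.10. Of the 7 eIF2 alpha genes, 0 were called by edgeR or DESeq2, although 5 reached an unadjusted p of 0.05, against 31.2% of all genes. The adjusted p was at most 0.05 for 4 of them, which failed only the 2-fold limit. These were Ppp1r15a at a log2 difference of 0.97, Ppp1r15b at 0.84, Eif2s1 at 0.74 and Eif2ak3 at 0.55, named after their values were seen. Of 20 aminoacyl-tRNA synthetases, which charge tRNAs and include many ATF4 targets, 0 were called by edgeR or DESeq2, 2 reached an unadjusted p of 0.05, and no log2 difference exceeded 0.42. Cebpb, a transcription factor of the pathway and of inflammation, rose 3.69-fold. Vegfa rose 5.41-fold, the largest rise among the growth, secreted and death outputs.

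In MSC+RAW-TW against MSC, 14 of the 112 genes were counted as higher and 6 as lower. These are 12.5% and 5.4%, where 13.1% and 21.5% of all genes were. Of the 6 other transcription factors of the pathway, 3 were higher, led by Nupr1, at 194 and 207 CPM against 78.7 and 79.5 CPM, a log2 difference of 1.37. With GC content and length trends removed Nupr1 was at 1.16, while the other two, Atf5 and Jdp2 (named after their values were seen), went from 1.10 to 0.34 and from 1.32 to 0.83. Eif4ebp1, a brake on translation and an ATF4 target, was 2.75-fold higher, the mitochondrial protease Lonp1 2.51-fold (log2 1.33, and 0.83 with the trends removed) and the ER-resident factor Manf 2.46-fold. Pdia3, an ER folding enzyme, was lower with a log2 difference of -1.28, as was the transporter Slc38a2 at -1.73. The tRNA synthetases split, with Farsa at 1.59 and Dars at -1.33. With the trends removed they were at 1.29 and -0.47. The 14 ER chaperones ran from -1.28, for Pdia3, to 1.30, for Manf.

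In MSC+RAW-LPS-TW relative to MSC+RAW-TW, 15 of the 112 genes were counted as higher and 11 as lower. These are 13.4% and 9.8%, where 24.6% and 18.6% of all genes were. Slc7a11 was 17.1-fold higher with LPS, a log2 difference of 4.09 that became 3.19 with the trends removed, and Vegfa was 5.90-fold higher. Among the 7 eIF2 alpha genes, 2 were higher and the larger difference was that of Ppp1r15b, a subunit of the phosphatase, at 1.77. The sensor Ern1, which encodes IRE1, was higher by 1.34 and Pdia3 by 1.39. Atf5, a factor of the mitochondrial stress response, was lower at -1.96, and at -1.29 with GC content and length trends removed.

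**Figure D4:**
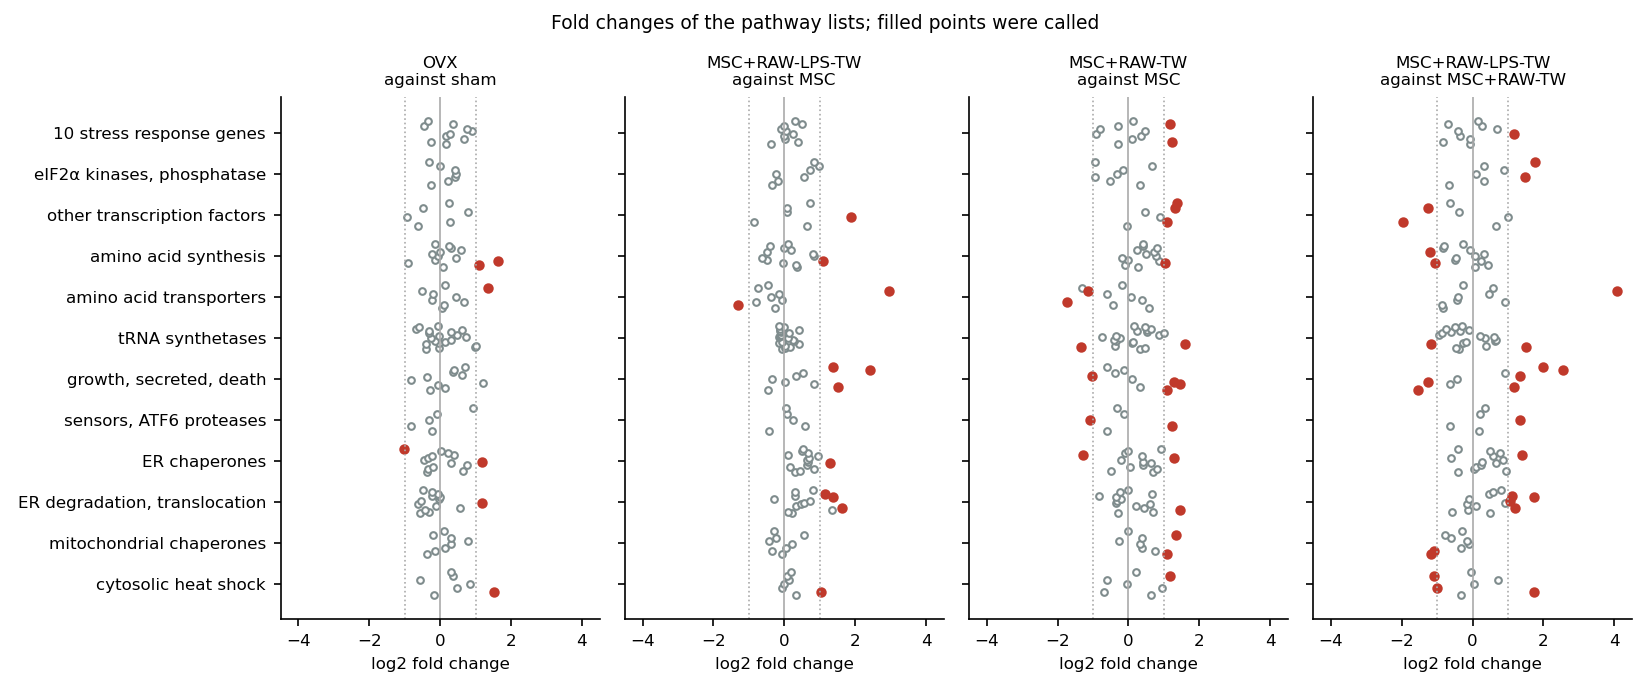
Log2 fold change of each gene of the 12 lists in the 4 comparisons. Each point is a gene, filled where it was called by the test (first 2 panels) or was at least 2-fold apart with no overlap (last 2 panels), and dotted lines mark 2-fold. In MSC+RAW-LPS-TW against MSC, the ER chaperones all lie above 0 while the tRNA synthetases lie near it.

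The 10 genes did not vary as a single group. Over the 10 distinct libraries, with the mean of each experiment subtracted, the Pearson correlation of log2 CPM between pairs of members ran from -0.91 to 0.82, with a median of -0.04 over the 36 pairs of 9 genes (Chac1 was too low). The highest were Ddit3 with Phgdh, at 0.82, and Atf4 with Trib3, at 0.77. Atf4 and Hspa5 stood at -0.76. For the genes whose pattern was most like a member's, 9757 genes were compared. For Hspa5 they were Atp2c1, Kpna1 and Herc4, at 0.982, 0.976 and 0.974. Asns was nearest to Sbf2, Ptprd and Gnaq, with values between 0.972 and 0.981. Ddit3 was nearest to Rpl6 (0.971) and to the processed pseudogenes Gm12251 and Gm6863 (0.973 and 0.970). These correlations are descriptions over few libraries that share group, depth and base composition.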

How the data were processed

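The authors deposited 2 tables of raw counts for each gene. According to the methods and the submitters' processing notes, they prepared poly(A) RNA with a directional kit, trimmed reads with Trim Galore 0.6.7, mapped them to GRCm38 with HISAT2 2.1.0 and counted with featureCounts 2.0.1. The strand setting and the treatment of read pairs were not stated. Genes that overlap could not be told apart where reads were shared, as for Ddit3 and the 105 bp of its second row, and the same holds for Ddit3 and Mars on the opposite strand (68 bp) and for Sesn2 and the long non-coding gene Gm12981, which reached at most 0.939 CPM. Names came from GENCODE and RefSeq annotation of GRCm38. Library totals ran from 17012923 to 45367105 counts, and even counts made up 60.0% to 71.4% of counts from 1 to 20.

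Counts were tested with edgeR 4.0.16 in R 4.3.3 (TMM, default filterByExpr, quasi-likelihood F-test, two-sided), with near-identical libraries (mean chi-square under 10 among highly counted genes) summed. All MSC libraries entered one fit. Residual degrees of freedom were 3 in the BMM fit and 2 in the MSC fit. Calls required an adjusted p of at most 0.05 over all genes and at least 2-fold, and without replicates at least 2-fold with no overlap. The 95% intervals come from the fit. In means and SDs the pair's mean counts as 1 sample. Levels are CPM, counts scaled to a common library total with TMM factors.

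The alternatives were RLE scaling, DESeq2 1.42.0, no filter or a mean of at least 1 CPM, separate libraries, a replicate block, libraries left out, lowess trends (span 0.3) on GC content and length removed, no fold limit, unadjusted p and only the groups compared. The library code series as a block or split was added after the data were seen. The members and the lists were chosen with earlier results of these data known. The genes named were taken from the 10 members, the called gene with the largest rise and with the largest fall of each other list with a mean of at least 5 CPM, the 3 genes most like Ddit3, Asns and Hspa5 (Pearson r of log2(CPM + 1), mean of at least 5 CPM in both experiments), and markers. Not every gene of the other lists that met this rule is named. The scripts were tested on simulated data with the same spread for every gene. For OVX against sham, 25 of 100 genes changed 2-fold passed an edgeR adjusted p of at most 0.05. For MSC+RAW-LPS-TW against MSC it was 28 of 100. At 4-fold, 97 and 100 of 100 passed. A gene changed 2-fold could thus often fail the test, and absence of a call does not show absence of change.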

Additional observations from a re-analysis of the deposited data

How the results depend on the processing

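Of the 10 genes, 0 were called between OVX and sham as reported, 1 with all libraries separate (Phgdh), 1 with the replicate block added to that fit (Phgdh), 1 with GC content and length trends removed (Chac1), and 0 to 3 when libraries were left out, 3 only without sham replicate 1. Whether the replicate numbers pair the samples was not settled. Deviations of same-numbered OVX and sham libraries correlated at 0.51, -0.05 and 0.50, and those of OVX replicate 3 and sham replicate 2 at 0.48. Sham replicates 2 and 3 are near-identical, so these values cannot tell pairing from its absence. The columns of the co-culture groups carry no usable replicate numbers, so no replicate block could be fitted there. A block on the library code series, added after the data were seen, could be fitted in all 4 comparisons with all libraries separate. Between OVX and sham it called 0 of the 10, where the same fit without it called 1 (Phgdh), and it changed the number called in none of the others. In MSC+RAW-TW against MSC, the 2 counted genes became 0 with the trends removed and 9 with no fold limit, and in MSC+RAW-LPS-TW relative to MSC+RAW-TW the 1 counted gene became 0 with the trends removed, 8 with no fold limit, and 0 to 1 when libraries were left out. Over the whole table, the number of genes called between OVX and sham was 1419 as reported, 540 with the trends removed, 2193 with no fold limit and 309 to 2390 when libraries were left out. Leaving out libraries gave 1925 to 2781 genes in MSC+RAW-LPS-TW against MSC, 7116 to 7561 in MSC+RAW-TW against MSC and 8569 to 10317 in the last comparison. With no fold limit these 3 comparisons gave 4286, 16065 and 16010 genes, against 2243, 7096 and 8860 with it. A mean of at least 1 CPM gave 3134 in MSC+RAW-TW against MSC and 4922 in the last, where fewer genes entered, and treating both MSC+RAW-TW libraries as separate, with a test, gave 4574 in MSC+RAW-TW against MSC. The cause of the other shifts was not tested. Members called in MSC+RAW-LPS-TW against MSC stayed at 0 under every alternative run. Leaving out both MSC+RAW-TW libraries gives no value for the comparisons that use them. Among the 10 genes, the 95% interval of the fit was widest for Ddit3 between OVX and sham, from -0.70 to 1.04.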
